A study of Mus musculus with 8 samples.

Results

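The genes described here are 39 mouse genes of S phase and mitosis, of 21631 protein-coding genes with a position in RefSeq (GRCm38.p6, the same coordinates as mm10). An ATAC-seq peak was given to a gene when the gene was the nearest protein-coding span to the peak midpoint, within 100 kb, with a distance of 0 inside the gene. That rule gave the 39 genes 332 peaks, namely 91 in the suprabasal TAC list, 87 in the basal TAC list, 71 in the hair germ list and 83 in the bulge list. Overlapping peaks of the 4 lists merged into 120 sites, of 114956 sites in all. Of these, 39 sites had a peak midpoint within 1 kb of the first or last base of their gene and are called gene-end sites, and the other 81 are called distal sites. All 39 genes had at least 1 site. The question was whether the gene ends are open in the resting populations as in the dividing ones, and how the distal sites compare.

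ATAC-seq reads out open chromatin through a transposase that inserts sequencing adapters into accessible DNA. In total 8 samples from mouse back skin, 2 per population, were sorted and profiled, and the authors deposited 1 peak list per population that pools both samples. Suprabasal TACs (transient amplifying cells) were GFP low, negative for integrin α6 and CD34, and came from K14-H2BGFP mice at postnatal day 30. The labels give this age and no stage, and back skin follicles of this age are known to be in anagen, the growth stage. Basal TACs were negative for GFP, CD34 and SCA1, P-cadherin+ with high integrin β1, and came from Lgr5-eGFP-ires-CreER mice at postnatal day 30. Hair germ cells were GFP+ and CD34-, and bulge stem cells were GFP+ and CD34+. Both were positive for integrins α6 and β1 and came from Lgr5-eGFP-ires-CreER mice at postnatal day 55, in the second telogen, the resting stage. Both sexes were mixed in every sample. In these mice the GFP reporters follow the Lgr5 gene or, as a histone fusion, the K14 promoter of basal epithelium. Stage and age cannot be told apart in this design, nor can strain and population for the suprabasal TACs, and the share of cells in cycle was not measured in the deposited data.

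Cells license replication origins in G1, when CDC6 and CDT1 load the MCM helicase, and fire them in S phase under cyclin E and cyclin A with CDK2. Cyclin B with CDK1, the Polo and Aurora kinases, the kinetochore, its checkpoint and motor proteins then carry chromosomes through mitosis. Many of the S phase genes are controlled through E2F sites, and many of the mitosis genes through CHR elements and CCAAT boxes, which bind the DREAM or MMB complex and NF-Y. In the hair follicle, bulge cells are mostly quiescent through telogen, whereas the matrix TACs of anagen divide rapidly.

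The suprabasal TAC list rested on 47852893 fragments with 72153 peaks, the basal TAC list on 30824845 with 75652, the hair germ list on 11053351 with 56548 and the bulge list on 24065469 with 62333. Fragment size was 187 bp in suprabasal TACs, 256 bp in basal TACs, 233 bp in hair germ and 224 bp in bulge. Levels are given as FPM, the pileup (the number of fragments over the highest point, or summit, of a peak, as the authors' caller gave it) scaled to 1000000 fragments of the list. This scale corrects for depth but not for fragment size or for the share of fragments outside peaks. Since each list pools its samples, no value has a replicate spread and no test between populations was possible. Intervals are 95% intervals that cover counting error only, and fragments copied by PCR are not independent molecules. Of 4 markers of the follicle epithelium, Krt5, Itga6 and Itgb1 had gene-end peaks in all 4 lists, and Krt14 in basal TACs and hair germ only. Gene-end peaks were found for 5, 6, 6 and 5 of 6 bulge markers in suprabasal TACs, basal TACs, hair germ and bulge. Cd34 had 0.564 FPM in suprabasal TACs, 2.37 in basal TACs, 3.53 in hair germ and 7.19 in bulge. Krt15 was also lower in hair germ (5.79) than in bulge (7.23). The reverse held for Lgr5 (7.78 in hair germ against 6.61 in bulge), Sox9 (6.79 against 5.94) and Lhx2 (6.15 against 4.70). Nfatc1 had 7.42 in hair germ and no gene-end peak in bulge. Of 7 matrix TAC markers, 5, 4, 5 and 5 had gene-end peaks in the same order, and Lef1 and Gata3 had none in any list. Msx2, Cdh3 and Hoxc13 among them were lower in both TAC lists than in both telogen lists, as were 83.1% of all genes. Msx2 had 6.69, 8.08, 15.6 and 15.25 FPM. Msx1 did not follow this, with 5.62, 6.55, 6.24 and 6.40 FPM. Cux1 had 3.36 FPM in suprabasal TACs, no gene-end peak in basal TACs, 3.35 in hair germ and 1.70 in bulge. These marker counts depend on the 1 kb midpoint rule. Counting any peak that reaches within 100 bp of either gene end, 3, 4, 4 and 4 of the 4 epithelial markers were covered in the same order. For bulge markers these counts were 5, 5, 6 and 6 of 6, and for matrix TAC markers 6, 6, 3 and 6 of 7. Markers of other cell types were found at their gene ends for 1 of 6 immune genes (Cd74) in each TAC list and 0 in the telogen lists, for 3, 2, 1 and 1 of 6 melanocyte genes in the same order, for 1, 2, 2 and 2 of 6 endothelial genes, and for 2 of 6 dermal genes in every list. Summed levels in that order were 9.42, 6.36, 8.41 and 6.94 FPM for melanocyte genes and 0.543, 0.714, 0 and 0 for immune genes. They were 0.627, 3.86, 7.51 and 5.07 FPM for endothelial genes and 1.92, 3.18, 4.98 and 5.07 for dermal genes, lower in both TAC lists than in both telogen lists, as most gene ends were. Tyr, Tyrp1, Sox10, Ptprc, Cd3e, Pecam1, Cdh5, Pdgfra and Col1a1 had no gene-end peak in any list. Their part in the results was not tested.

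Promoter windows of RefSeq (GRCm38.p6), which run from 250 bases before to 50 bases after a gene start, were given for 30 of the 39 genes, as 32 windows. Shown here are the 3 genes with the highest and the 3 with the lowest difference between TAC and telogen lists at the gene end, since they mark both ends of the pattern described below. Ccnb2, a B-type cyclin, was added after its values were seen because its window holds the mitotic motifs in several copies. Capitals mark the letters of CHR (TTTGAA), the CCAAT box (CCAAT) and an E2F site (TTTNNCGC), each searched on both strands, and overlapping matches run together as 1 stretch of capitals.
Tyms, chr5:30073576-30073875, minus strand: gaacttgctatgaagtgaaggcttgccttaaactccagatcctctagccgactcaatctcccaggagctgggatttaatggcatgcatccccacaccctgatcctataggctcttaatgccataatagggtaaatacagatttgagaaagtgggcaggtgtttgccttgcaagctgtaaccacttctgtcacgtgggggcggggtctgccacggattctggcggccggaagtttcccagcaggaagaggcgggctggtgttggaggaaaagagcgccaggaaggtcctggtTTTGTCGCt
Plk1, chr7:122159185-122159484, plus strand: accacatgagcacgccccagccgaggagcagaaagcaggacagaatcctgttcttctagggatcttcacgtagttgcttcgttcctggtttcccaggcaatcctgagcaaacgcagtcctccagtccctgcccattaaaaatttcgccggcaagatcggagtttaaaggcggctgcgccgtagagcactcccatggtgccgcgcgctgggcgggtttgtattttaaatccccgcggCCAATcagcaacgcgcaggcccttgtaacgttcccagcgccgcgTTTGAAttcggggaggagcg
Cdc6, chr11:98907901-98908200, plus strand: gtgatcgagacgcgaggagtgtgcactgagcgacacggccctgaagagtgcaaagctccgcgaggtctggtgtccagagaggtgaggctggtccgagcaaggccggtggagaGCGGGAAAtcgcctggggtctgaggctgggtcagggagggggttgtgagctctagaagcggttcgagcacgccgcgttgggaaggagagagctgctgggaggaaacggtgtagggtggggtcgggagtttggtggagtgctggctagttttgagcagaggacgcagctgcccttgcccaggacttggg
Kif11, chr19:37376132-37376431, plus strand: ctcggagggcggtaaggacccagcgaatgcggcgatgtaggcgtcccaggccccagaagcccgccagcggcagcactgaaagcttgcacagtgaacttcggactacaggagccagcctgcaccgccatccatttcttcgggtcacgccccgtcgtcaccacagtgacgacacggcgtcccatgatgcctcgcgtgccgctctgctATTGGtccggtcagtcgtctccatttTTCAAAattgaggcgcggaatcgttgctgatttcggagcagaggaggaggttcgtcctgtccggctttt
Mcm3, chr1:20820263-20820562, minus strand: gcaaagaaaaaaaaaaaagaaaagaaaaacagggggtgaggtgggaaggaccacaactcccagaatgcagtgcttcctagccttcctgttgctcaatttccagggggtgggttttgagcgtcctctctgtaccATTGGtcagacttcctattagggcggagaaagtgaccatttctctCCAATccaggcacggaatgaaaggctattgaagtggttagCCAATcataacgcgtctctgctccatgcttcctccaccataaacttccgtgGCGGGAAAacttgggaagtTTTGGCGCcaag
Mcm6, chr1:128359656-128359955, minus strand: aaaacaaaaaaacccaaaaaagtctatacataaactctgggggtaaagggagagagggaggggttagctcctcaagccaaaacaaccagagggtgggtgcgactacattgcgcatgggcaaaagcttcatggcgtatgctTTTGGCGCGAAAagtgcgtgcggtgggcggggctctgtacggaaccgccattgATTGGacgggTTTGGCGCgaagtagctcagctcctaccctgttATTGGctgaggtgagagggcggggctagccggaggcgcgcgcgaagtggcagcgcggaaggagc
Ccnb2, chr9:70421505-70421804, minus strand: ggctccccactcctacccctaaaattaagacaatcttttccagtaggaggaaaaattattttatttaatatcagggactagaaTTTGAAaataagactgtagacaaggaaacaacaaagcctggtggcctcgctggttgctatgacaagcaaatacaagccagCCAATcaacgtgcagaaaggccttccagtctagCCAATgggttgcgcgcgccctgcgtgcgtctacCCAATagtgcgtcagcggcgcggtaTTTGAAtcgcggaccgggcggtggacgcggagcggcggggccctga
Aurkb, Ccne2, Gmnn, Tpx2, Mcm4, Ccna2, Kif20a, Foxm1 and Cdc25c are without a printed window.

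CHR letters were in 13 of the 32 windows (40.6%), against 15.6% of 21045 RefSeq promoters. CCAAT was in 25 of 32 (78.1%), against 38.5%, and the E2F letters were in 10 of 32 (31.2%), against 6.30%. E2F letters were in 6 of 7 windowed licensing genes (Cdc6, Cdt1, Mcm3, Mcm5, Mcm6 and Mcm7), where CHR letters were in 1, Mcm2. Conversely, CHR letters were in 3 of 5 checkpoint genes, 2 of 3 windowed spindle and kinetochore genes, 2 of 3 windowed mitotic kinase and passenger genes, and both chromosome genes, Mki67 and Top2a, none of which had E2F letters. Other roles were mixed: of 5 windowed cyclins and their kinases 2 held CHR and 2 held E2F letters, Cdk1 and E2f2 held both, and of 3 synthesis genes Tyms alone held E2F letters. The difference between roles was not tested. Plk1 and Kif11, at opposite ends of the FPM pattern below, both hold a CCAAT box and a CHR within the window. Cdc6 and Mcm6, likewise at opposite ends in FPM, both hold E2F letters. These matches are descriptions of the windows, not of binding. The windows were rich in CpG, with a median of 24 per window against 13 over all promoters, at a median GC content of 57.8% against 56.7%.

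The gene ends were open in the resting lists as in the dividing ones. Of the 39 gene-end sites, 37 were held by all 4 lists (94.9%, exact interval 82.7 to 99.4), against 74.8% of 14452 gene-end sites of all genes. None was held by the telogen lists alone, where all genes had 3.84%, and 1 by a TAC list alone (2.56%), where all genes had 13.9%. That 1 site lay at the far end of Cdk1, the mitotic cyclin-dependent kinase, in the basal TAC list, while the site at the Cdk1 start was in all 4. The remaining site, at the 3′ end of E2f2, an activating E2F factor, was in the basal TAC and hair germ lists. Counted per gene, 34 of 39 members had a gene-end peak in suprabasal TACs, 35 in basal TACs, 34 in hair germ and 33 in bulge, where all genes had 52.9% in suprabasal TACs, 52.7% in basal TACs, 50.2% in hair germ and 50.6% in bulge. By another definition, added after these values were seen, a peak reaching within 100 bp of either gene end, 36 of 39 members were covered in all 4 lists (92.3%, exact interval 79.1 to 98.4), against 48.3% of all genes.

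Across the genome, open gene ends went with CpG content. Among 6312 genes with 20 or more CpG in the promoter window, 78.8% had a gene end covered in all 4 lists, against 6.16% of 4904 genes with at most 4 CpG. Of the members, 19 fell in the class of 20 or more CpG and 18 of them were covered in all 4. A further 8 members had 15 to 19 CpG, and 7 of them were covered in all 4. The class of 15 to 19 CpG had 73.5% of all genes covered. With less CpG, the 2 members with 5 to 9 and the 1 member with 10 to 14 were also covered in all 4. In those classes 29.4% and 61.1% of all genes were. The members' shares were higher than those of all genes in each of these classes, but with few members per class the difference was not tested. The lists of other cell cycle genes had like shares, with 29 of 32 other replication genes (90.6%) and 42 of 44 other mitosis genes (95.5%) covered in all 4, and widely expressed genes had 16 of 20 (80.0%).

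**Figure D1:**
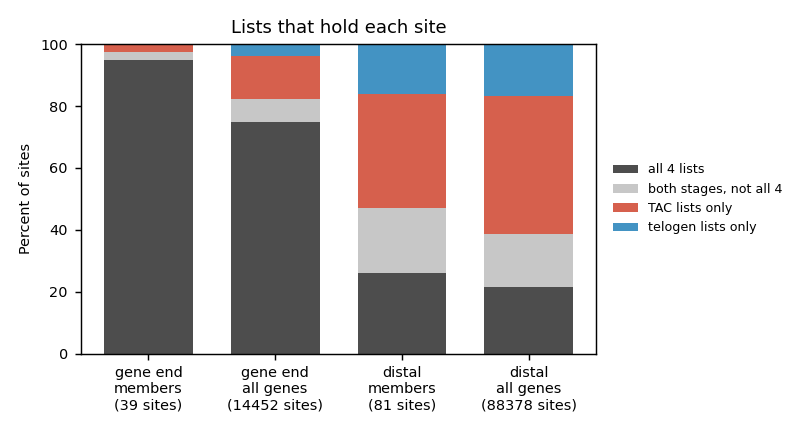
Stacked bars give the percent of sites held by all 4 lists, by lists of both stages but not all 4, by TAC lists only or by telogen lists only, for gene-end and distal sites of the members and of all genes. Of the members' gene-end sites 94.9% were in all 4 lists, against 25.9% of their distal sites.

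In total 30 members had a gene-end peak by the 1 kb rule in all 4 lists, and for 8 of the other 9 an open site over or beside the gene end was nevertheless present in every list. The site between Mcm4, a helicase subunit, and Prkdc had its midpoint nearer to Prkdc and reached 7.96 FPM in suprabasal TACs, 12.5 in basal TACs, 19.6 in hair germ and 20.1 in bulge. Aurka, the Aurora kinase of the spindle poles, shared its site with Cstf1, with 3.87, 6.78, 11.2 and 13.7 FPM in the same order of lists. Kif20a, a kinesin of cytokinesis, shared its site with Brd8, with 4.62 in suprabasal TACs, 5.87 in basal TACs, 10.1 in hair germ and 9.77 in bulge. In each of these 3 pairs of neighbours both telogen lists stood above both TAC lists, as in 83.1% of 9447 genes measured in all 4 lists. For Aurka and Kif20a the rule gave the peak to the member in 2 lists and to its neighbour in the other 2.

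Cdk2, the S phase kinase, shared the site over its start with Pmel, where the peak spanning the start reached 1.59 in suprabasal TACs, 2.69 in basal TACs, 3.53 in hair germ and 3.95 in bulge. In the suprabasal list the rule gave Cdk2 another peak instead, of 320 bp and 0.627 FPM, so its ratio to the basal list is not one of like peaks. Foxm1, a factor that activates mitosis genes, had a site at the end it shares with Rhno1, with 1.84, 2.53, 5.34 and 6.61 FPM in suprabasal TACs, basal TACs, hair germ and bulge. Near the other end, beside Tex52, the peaks given to Foxm1 were small, at 0.487 in basal TACs, 1.45 in hair germ and 1.12 in bulge.

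Peak midpoints near the 1 kb limit set the other gaps. Just inside the limit were Foxm1 in basal TACs at 828 bp and Ccna2 in bulge at 980 bp, and just outside were Ccne2 in hair germ at 1002 bp, Ccna2 in basal TACs at 1046 bp and Rrm2 in suprabasal TACs at 1053 bp. Ccna2 (cyclin A2) had 5.54 FPM in suprabasal TACs, 8.89 in basal TACs, 11.6 in hair germ and 14.5 in bulge at that site, whose summits lay 785 to 844 bp inside the RefSeq end. Ccne2 (cyclin E2) had 4.14, 6.46, 9.95 and 11.4 in the same order. Rrm2, a subunit of the reductase that makes deoxyribonucleotides, had 5.96, 8.05, 8.78 and 10.0, from peaks of 2389 to 3503 bp with the summit at 400 bp after the start in every list. All 3 genes were thus open in all 4 populations, highest in bulge and lowest in suprabasal TACs. At each of them both TAC lists were below both telogen lists, as for 83.1% of all genes.

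E2f2 was open at a site over its second RefSeq start (chr4:136179991-136181396), at 6.44 FPM in suprabasal TACs, 7.04 in basal TACs, 5.07 in hair germ and 9.60 in bulge. A second site, with its highest summit at -2195 bp from the first RefSeq start in suprabasal TACs, -2202 bp in basal TACs, -2221 bp in hair germ and -2159 bp in bulge, reached 5.91, 2.37, 4.98 and 5.15 FPM. The TAC and telogen values of E2f2 overlapped at both sites. Mki67, which encodes the proliferation antigen Ki-67, had a peak across its start in basal TACs, hair germ and bulge, whereas the suprabasal list had a peak on either side, at 1.65 and 1.02 FPM, with no called peak across the start itself.

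At the gene ends that were called, the median level of the members stood above that of all genes in every list. The median member reached 3.08 FPM in suprabasal TACs (34 members), 5.48 in basal TACs (35), 7.74 in hair germ (34) and 7.73 in bulge (33), against medians over all genes with a gene-end peak of 2.67, 3.86, 6.38 and 6.48 in the same order of lists. The ratio of these medians was 1.15 in suprabasal TACs, 1.42 in basal TACs, 1.21 in hair germ and 1.19 in bulge. Members above the median of all genes numbered 21 of 34, 24 of 35, 18 of 34 and 18 of 33 in the same order. Member peaks were also longer than those of all genes in TACs, with medians of 1377.5 bp against 1203 bp in the suprabasal and 1343 bp against 1137 bp in the basal list, but not in telogen, with 993.5 bp against 1056 bp in hair germ and 1085 bp against 1173 bp in bulge. These are levels of the genes that had a peak, and a gene without one has no level here.

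Among the origin licensing genes, the helicase subunits Mcm3, Mcm5 and Mcm6 were well below the telogen lists in both TAC lists, whereas Mcm7 and the loader Cdc6 were not in basal TACs. Mcm3 had 3.09 FPM in suprabasal TACs, 6.81 in basal TACs, 12.8 in hair germ and 13.1 in bulge. Mcm5 had 4.83, 7.69, 15.6 and 15.25, and Mcm6 had 2.80, 6.10, 11.1 and 11.6, in the same order. Both TAC lists were below both telogen lists for these 3 genes, as for 83.1% of all genes. Mcm7 had 3.24 in suprabasal TACs, 6.33 in basal TACs, 5.79 in hair germ and 5.94 in bulge. Cdc6 had 1.88 in suprabasal TACs, 4.09 in basal TACs, 3.53 in hair germ and 3.45 in bulge, so that for both genes the basal value was the highest of the 4. The intervals of these basal ratios included 1, at 1.06 over bulge (0.854 to 1.33) and 1.09 over hair germ (0.820 to 1.47) for Mcm7, and 1.19 (0.891 to 1.58) and 1.16 (0.803 to 1.70) for Cdc6. Mcm2 (1.86, 3.70, 4.25 and 4.65), the loader Cdt1 (4.20, 5.45, 8.05 and 7.85) and its inhibitor Gmnn, geminin (4.89, 7.27, 13.2 and 11.8), kept the order of the 3 helicase genes above, TAC lists below telogen lists.

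Of the DNA synthesis genes, Pcna, the sliding clamp of the polymerases, had the highest suprabasal level of the members by the 1 kb rule, at 5.79 FPM, with 9.51 in basal TACs, 16.5 in hair germ and 15.2 in bulge. Tyms, thymidylate synthase, did not follow this order, with 1.59 in suprabasal TACs, 2.95 in basal TACs, 1.36 in hair germ and 1.79 in bulge. Its basal value was 1.65 times the bulge value (interval 1.14 to 2.43) and 2.18 times the hair germ value (1.25 to 4.05), from pileups of 91, 15 and 43 fragments in basal TACs, hair germ and bulge. The suprabasal value of Tyms lay between those of hair germ and bulge, and its interval against either included a ratio of 1. E2f1, an activating E2F factor, had 4.72 in suprabasal TACs, 7.20 in basal TACs, 8.87 in hair germ and 10.7 in bulge, in the common order.

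Among cyclins and their kinases, Ccne1 (cyclin E1) was among the lowest in TACs against telogen, with 2.80 FPM in suprabasal TACs, 5.48 in basal TACs, 9.86 in hair germ and 8.89 in bulge. Ccnb1 (cyclin B1) had 2.22, 4.48, 4.16 and 4.70, so that its basal value lay between those of hair germ and bulge. Ccnb2 (cyclin B2), whose window is printed above, had 1.80, 2.56, 4.98 and 3.57 in the same order of lists. Cdk1 at its start had 2.59 in suprabasal TACs, 4.51 in basal TACs, 5.70 in hair germ and 7.19 in bulge. Cdc25c, the phosphatase that activates CDK1, had 4.26, 7.56, 10.1 and 9.56. For Ccnb2, Cdk1 and Cdc25c both TAC lists were below both telogen lists, as for 83.1% of all genes.

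Plk1, the Polo kinase of mitotic entry, had 3.30 FPM in suprabasal TACs, 5.84 in basal TACs, 4.79 in hair germ and 5.49 in bulge, and its basal value was the highest of the 4. The interval of its basal ratio included 1 against both hair germ (ratio 1.22, 0.892 to 1.69) and bulge (1.06, 0.846 to 1.34). Aurkb, the Aurora kinase of the chromosomal passenger complex, had 3.34, 3.89, 7.60 and 5.61 in suprabasal TACs, basal TACs, hair germ and bulge. Birc5 (survivin), of the same complex, had 2.55, 3.05, 4.07 and 5.15, where the basal value came from a summit at -1242 bp from the start, against -103 bp in suprabasal TACs and -10 bp in hair germ and bulge.

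The spindle checkpoint genes kept the common order with differing spread. Mad2l1, whose protein holds back the anaphase-promoting complex, had the highest level by the 1 kb rule in 3 lists, with 12.4 FPM in basal TACs, 18.5 in hair germ and 19.4 in bulge, and had 5.68 in suprabasal TACs. The kinase Ttk had 3.66 in suprabasal TACs, 6.65 in basal TACs, 11.5 in hair germ and 11.8 in bulge. Cdc20, the activator of the anaphase-promoting complex, had 3.07, 6.33, 7.87 and 7.73, and Bub1b had 1.44, 3.44, 4.25 and 4.40. For these 4 genes the suprabasal list was well below the basal list. Bub1, a checkpoint kinase, had 1.48, 1.95, 2.90 and 2.202, and its suprabasal over basal ratio of 0.762 (0.533 to 1.09) included 1.

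All 4 spindle and kinetochore genes with a value in every list had a TAC to telogen difference below that of the median gene. Kif11, the motor that separates the spindle poles, had 3.26 FPM in suprabasal TACs, 6.72 in basal TACs, 15.6 in hair germ and 15.4 in bulge, the widest gap among the members. Its suprabasal value was 0.211 of the bulge value (0.174 to 0.256) and its basal value 0.436 of it (0.366 to 0.518). Tpx2, which nucleates spindle microtubules, had 4.12, 5.61, 11.5 and 13.9 in suprabasal TACs, basal TACs, hair germ and bulge. Cenpa, the histone H3 variant of centromeres, had 3.13, 5.64, 7.87 and 10.2, and the kinetochore motor Cenpe had 1.92, 3.15, 5.07 and 5.82. The chromosome genes were closer to the typical gene: Top2a, the topoisomerase that untangles sister chromatids, had 2.82, 4.80, 5.88 and 5.32, and Mki67 had 1.65, 2.24, 3.71 and 3.66.

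Set against all genes, the gene ends of the members were lower in TACs on the FPM scale by about as much as gene ends in general. Averaged on the log2 scale over both lists of a stage, the 30 members measured in all 4 lists had a median difference of -0.92 between TAC and telogen lists, against -0.94 over 9447 genes. A member was called lower or higher past 1.5-fold. By that call 24 of 30 members were lower, where 76.3% of all genes were, and 0 were higher, where 1.65% were. In 25 of 30 both TAC lists were below both telogen lists (83.1% of all genes), and in 0 of 30 both were above (2.17%). Relative to the median of all genes, the median member differed by 0.02 on the log2 scale, with 16 members above and 14 below, and 3 of 30 were higher past 1.5-fold (14.2% of all genes) and 1 lower (9.22%). The 3 were Tyms, Plk1 and Cdc6, and the 1 was Kif11. In these bulk populations, fewer cells with an open site and less opening per cell cannot be told apart.

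The 6 members with the lowest difference between stages were Kif11 (-1.73), Mcm3 (-1.50), Mcm6 (-1.46), Tpx2 (-1.39), Mcm5 (-1.34) and Ccne1 (-1.26), as log2 differences between both TAC and both telogen lists. The 6 highest were Tyms (0.48), Plk1 (-0.22), Cdc6 (-0.33), Mcm7 (-0.37), Ccnb1 (-0.49) and Bub1 (-0.57). By role, the median was -1.27 for 4 spindle and kinetochore genes, -0.96 for 5 checkpoint genes, -0.92 for 8 licensing genes, -0.91 for 5 cyclins and their kinases, -0.77 for 2 chromosome genes, -0.74 for E2f1, -0.72 for 3 mitotic kinase and passenger genes and -0.31 for 2 synthesis genes, Pcna and Tyms. Licensing genes thus stood at both ends on the FPM scale, with Mcm3, Mcm5 and Mcm6 low and Cdc6 and Mcm7 high. On fold enrichment over the local background this split did not hold, with Cdc6 (-0.59) below Mcm3 (-0.32), Mcm5 (-0.44) and Mcm6 (-0.44). Of the 6 highest in FPM, Mcm7 (-0.34), Plk1 (-0.38), Bub1 (-0.49) and Cdc6 were then below the median of all genes (-0.26). Tyms (0.45) and Ccnb1 (0.20) were above it. Other replication genes had a median of -0.96 (22 of 32 measured in all 4 lists), other mitosis genes -0.87 (30 of 44) and widely expressed genes -1.10 (15 of 20).

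Each of the 6 pairs of lists was also compared, with lists shared between pairs. Suprabasal TACs over bulge had a median log2 ratio of -1.30 for 30 members against -1.21 for all genes, with 28 members lower and 0 higher (all genes 82.7% lower and 2.35% higher). Suprabasal TACs over hair germ gave -1.29 for 32 members against -1.20, with 29 lower and 0 higher (85.5% and 1.41%). Basal TACs over bulge gave -0.61 for 32 members against -0.67, with 16 lower and 1 higher (56.5% and 5.58%), and basal TACs over hair germ -0.57 for 33 members against -0.66, with 15 lower and 1 higher (55.7% and 3.51%). The 1 higher was Tyms in both. In all 4 pairs the members stood within 0.1 of all genes. Relative to the median of all genes, the members' median log2 ratio was -0.09 for suprabasal TACs over bulge and over hair germ, and turned positive for basal TACs, at 0.06 over bulge and 0.09 over hair germ.

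After this centring, few members were past 1.5-fold, in shares near or below those of all genes. Ccnb1, Plk1, Cdc6, Mcm7 and Tyms, 5 of 32 members, were higher in basal TACs over bulge (17.1% of all genes) and Tpx2 alone was lower (11.5%). Over hair germ, a pair that shares the basal list, the same 5 of 33 members were higher (14.5%) and Foxm1 alone was lower (10.6%). The Foxm1 value sets a basal peak of 271 bp beside a hair germ peak of 2013 bp. By the highest basal peak of that whole site, 0.843 FPM against 1.45 FPM in hair germ, a value added after the data were seen, Foxm1 lay at -0.12 from the median of all genes and was not past 1.5-fold. In suprabasal TACs over bulge 2 of 30 were higher, Bub1 and Tyms (18.7%), and 3 lower, Mcm3, Mcm6 and Kif11 (13.3%). Over hair germ 3 of 32 were higher, Plk1, E2f2 and Tyms (15.4%), and 4 lower, Ccne1, Mcm3, Mcm6 and Kif11 (12.3%). The E2f2 value is not one of like sites, since its suprabasal peak lay before the first start and its hair germ peak at the 3′ end.

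Within a stage, the telogen lists were nearly alike at these genes while the TAC lists were not. Hair germ over bulge had a median log2 ratio of -0.03 for 32 members against -0.02 for all genes, and 0 members were past 1.5-fold in either direction (all genes 2.35% lower and 5.3% higher, and 2.17% and 5.62% after centring). The counting interval lay off the median of all genes for Aurkb, with a ratio of 1.35 (1.02 to 1.79), and Cenpa, with 0.770 (0.596 to 0.987). An interval above that median was seen for 5.04% of all genes and below it for 4.81%. Suprabasal over basal TACs had a median of -0.82 for 33 members against -0.55 for all genes, with 23 lower and 1 higher (45.6% and 1.98%). Scaled also by fragment size, a setting added after the data were seen, the medians were -0.37 for the members and -0.09 for all genes. Past 1.5-fold were then 9 members in place of 24, 8 lower and 1 higher (11.4% and 6.9% of all genes). On fold enrichment the medians were -0.45 and -0.31, also with 9 members, 9 lower and 0 higher (19.9% and 1.2%). The members thus stood 0.28 below all genes in pileup and 0.13 below on fold enrichment. Scaling by fragment size applies 1 factor to a whole list and so cannot change the first gap. After centring the members' median was -0.28, with 3 of 33 lower, Cdk2, Bub1b and Mcm3 (8.79%), and E2f2 alone higher (9.35%). In 24 of the 33 the ratio was below the median of all genes, and in 30 of the 30 measured in all 4 lists the basal value was above the suprabasal one (90.7% of all genes). The counting interval lay below the all-gene median ratio of 0.685 for 14 of 33 members (16.9% of all genes), namely Ccnb1, Ccne1, Cdk2, Bub1b, Cdc20, Cdc25c, Cdc6, Mcm2, Mcm3, Mcm6, Mcm7, Kif11, Ttk and Mad2l1, and above it for E2f2 alone (15.5%). For E2f2 and Cdk2 the ratio sets unlike peaks side by side, since the suprabasal peak given to E2f2 lay before its first start and the basal one at its 3′ end. By the peaks across the start of Cdk2, 1.59 FPM in suprabasal TACs and 2.69 in basal TACs, Cdk2 lay at -0.21 from the median of all genes and was not past 1.5-fold.

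The suprabasal list also differed from the basal one in strain and sort, which cannot be told apart from the population. On fold enrichment over the local background, as the authors' caller gave it, the difference between stages was -0.38 for the median member against -0.26 for all genes. In 21 of 30 members it was below the median of all genes.

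**Figure D2:**
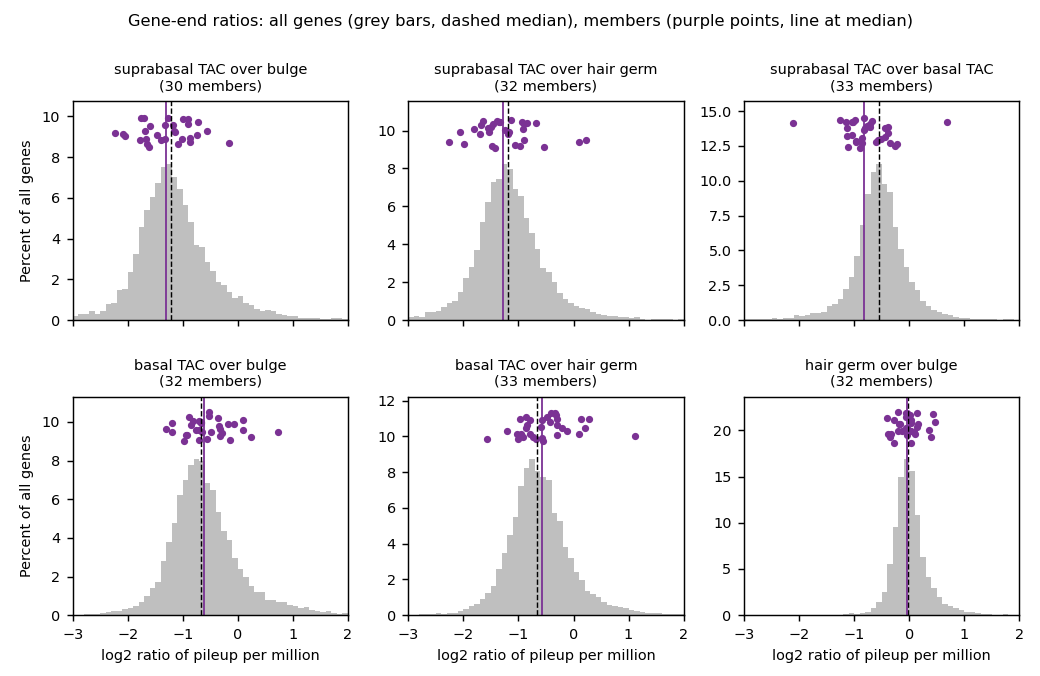
Grey bars give the percent of all genes by log2 ratio of gene-end FPM for each pair of lists, with a dashed line at their median, and purple points (spread vertically only for legibility) give the members, with a line at theirs. The members' median lies within 0.1 of that of all genes in every pair but suprabasal over basal TACs, where it is -0.82 against -0.55.

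The open position at the start was also compared between lists, for the members only, so no share over all genes stands beside these counts. The summit lay within 250 bp of the RefSeq start for 22 of 29 members in suprabasal TACs, 24 of 29 in basal TACs, 21 of 29 in hair germ and 20 of 27 in bulge. Over the 26 members with a start and a peak in all 4 lists, the 4 summits spanned a median of 79 bp, and in 15 of 26 they spanned at most 100 bp. At Mcm5 the summit was at -117 bp from the start in suprabasal TACs and at -21 bp in the other lists. At E2f1 it was at -493 bp in all 4 lists. Among those spanning more than 100 bp was Mki67, with the summit at 600 bp in suprabasal TACs, -129 bp in basal TACs and -385 bp in hair germ and bulge. Another was Pcna, with -11 bp in suprabasal TACs, -12 bp in basal TACs, 426 bp in hair germ and -11 bp in bulge.

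Distal sites, unlike gene ends, were mostly held by some lists and not others. Of the 81 distal sites, 21 were in all 4 lists (25.9%, exact interval 16.8 to 36.9), where all genes had 21.4%. Among these 21 are the site over the second start of E2f2 and the Ccne2 site just outside the 1 kb limit. TAC lists alone held 30 (37.0%, 26.6 to 48.5), where all genes had 44.7%, and telogen lists alone held 13 (16.0%, 8.83 to 25.9), where all genes had 16.7%. The other 17 were in lists of both stages but not all 4. The shares of the members were thus near those of all distal sites, and the interval of each includes the share over all genes. Suprabasal TACs held 52 of the 81 sites, basal TACs 48, hair germ 35 and bulge 49. Counting only the 60 sites high enough to be visible in the lists that lack them, TAC lists alone held 13 (21.7%), where all genes had 33.6%.

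The 81 sites belonged to 24 members, and the other 15 had none. Of the sites, 19 lay inside the gene and 62 outside it. Sites in all 4 lists were longer, with a median merged length of 1246 bp, than those in TAC lists alone (463.5 bp) or telogen lists alone (321 bp), and their peaks had higher −log10 q-values, with medians of the highest per site of 95.9, 10.1 and 9.05. Both are taken over every list that holds a site, which favours sites held by more lists. Single-list sites numbered 11 in suprabasal TACs (13.6%), 12 in basal TACs (14.8%), 0 in hair germ, the shallowest library, and 9 in bulge (11.1%), where all genes had 17.5%, 15.4%, 2.52% and 7.11% in the same order. The exact intervals of the 4 shares include those of all genes. Mki67 had 15 distal sites, Cdk1 8, E2f2 7, Kif11 6, and Bub1b, Ccne1, Mcm5 and Rrm2 5 each.

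**Figure D3:**
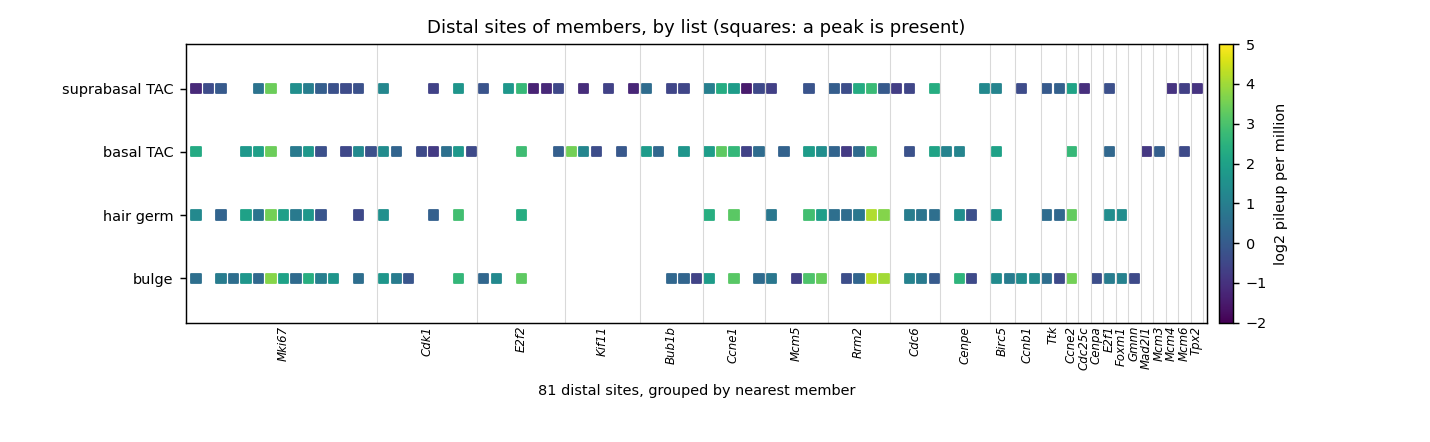
Each column is 1 of the 81 distal sites, grouped by nearest member, and each square a peak in that list, coloured by log2 FPM. Mki67 carries 15 sites, of which 7 are in all 4 lists, and Kif11 carries 6, all in TAC lists.

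Distal sites in both lists of 1 stage and neither of the other numbered 7 for TACs (8.64%, exact interval 3.55 to 17.0) and 4 for telogen (4.94%, 1.36 to 12.2), where all genes had 11.8% and 7.04%. Of the 7, the 3 lowest, near Ccne1 (23883 bp), Mcm6 and Mki67, were too low for their absence in telogen to be visible at the depth of those lists. The highest of the TAC sites was 20615 bp from Ccne1 (chr7:38076690-38077985), with 4.97 FPM in suprabasal TACs and 9.64 in basal TACs and no peak in hair germ or bulge. A site 11714 bp from Bub1b had 1.36 in suprabasal TACs and 3.54 in basal TACs, and a site 12764 bp from Kif11 had 0.460 and 2.34. The other 4, near Ccne1, E2f2, Mcm6 and Mki67, reached at most 1.07 FPM in either list. The telogen sites were inside Cdc6 (1.63 in hair germ, 1.83 in bulge), inside Foxm1 (2.62 and 2.08), 5895 bp from Cenpe (0.814 and 0.748) and 24076 bp from Mki67 (3.80 and 4.11). Mki67 had sites of both kinds.

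The highest distal sites of single lists were at Kif11 and E2f2. A site 17795 bp from Kif11 (chr19:37358218-37358956) had 11.3 FPM in basal TACs and no peak elsewhere, and all 6 distal sites of Kif11 were in TAC lists only, as were 44.7% of the distal sites of all genes. At 3 of the 6 the level was too low for absence in telogen to be visible. A site inside E2f2 had 3.26 FPM in suprabasal TACs alone. Next came 2 sites in bulge alone, 2799 bp from Ccnb1 with 2.49 and 4358 bp from E2f2 with 2.45. A site inside Cenpe had 2.445 in suprabasal TACs alone. A site 32829 bp from Rrm2 (chr12:24746467-24747484) showed the reverse, with 0.961 in suprabasal TACs, no peak in basal TACs, 13.1 in hair germ and 16.2 in bulge. Similarly, a site 41075 bp from Mcm5 had no peak in suprabasal TACs, 2.69 in basal TACs, 3.71 in hair germ and 10.3 in bulge.

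At the 21 distal sites held by all 4 lists, the levels of TACs against telogen ranged more widely than at the gene ends. The log2 difference between stages had a median of -0.55, against -0.74 over 18910 such sites of all genes, and ran from -2.12 to 1.93, whereas the 30 gene ends ran from -1.73 to 0.48. Over all genes, such distal sites ran from -5.32 to 2.97 and gene ends from -3.95 to 2.95. Low levels, such as 0.439 FPM in suprabasal TACs at a site inside Mki67, widen the counting error of single differences. By the 1.5-fold call 10 of 21 were lower (57.4% of all genes) and 3 higher (8.84%), and in 2 both TAC lists were above both telogen lists (8.01%). A site 1432 bp from Cdc6 (chr11:98925177-98926692) had 5.06 FPM in suprabasal TACs, 4.15 in basal TACs, 1.45 in hair germ and 0.997 in bulge, the highest difference. A site 9693 bp from Rrm2 had 4.85 in suprabasal TACs, 1.33 in basal TACs, 1.72 in hair germ and 1.21 in bulge, so its difference came from the suprabasal list. The lowest was a site 29739 bp from Mcm5, with 0.878, 3.60, 7.33 and 8.19 in suprabasal TACs, basal TACs, hair germ and bulge. At Mki67, the highest distal site, 19078 bp from the gene (chr7:135734554-135736559), was nearly level, with 10.8 in suprabasal TACs, 10.8 in basal TACs, 11.4 in hair germ and 13.3 in bulge. These values were well above the 1.65 to 3.71 of the gene-end site of Mki67.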

How the data were processed

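Peaks came from 4 deposited lists, 1 per population, each made by the authors from 2 pooled samples. The caller was MACS 2.1.1.20160309, run with a q-value cutoff of 0.05 and no control, per the file headers. Tools listed in the submitters' processing notes are Bowtie2 2.2.9, Picard and MACS2, with the build mm10. For a peak the authors deposited its length in bp, the fragment pileup at its summit (a signal of coverage, not scaled for depth), −log10 p-values and −log10 q-values, and a fold enrichment (a ratio to the local background), all per the file headers. The −log10 column names were damaged in the deposited files and were told apart by their place. The number of per-sample value columns left unused is 0. Peaks on the Y and mitochondrial chromosomes were left out.

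Genes came from RefSeq (GRCm38.p6, 21631 protein-coding genes), in a table without strand, so a gene end is either end of the span. Peaks overlapping by at least 1 bp were merged. The gene-end level was the highest pileup of a gene's gene-end peaks scaled to 1000000 header fragments (FPM). Ratios of 2 pileups have exact conditional-binomial intervals and shares have exact Clopper-Pearson intervals, at 95%, for counting error only. With 1 pooled list per population, no p-value was computed. Calls used 1.5-fold. The steps were checked on simulated data. The members and the gene lists were chosen with earlier results of these data known. Named in full were members without a gene-end peak in a list, the 6 highest and 6 lowest stage differences, the 5 with most distal sites (Bub1b by alphabet among those tied) and those with a distal site of 1 stage. Other settings tried were stricter q-values, other windows and distances, equal list sizes, other overlaps, gene start only, other peaks at the gene end, other scalings, fold enrichment and a 2-fold call. Computations used Python 3.11.15, numpy 2.4.6, pandas 2.3.3, scipy 1.17.1 and matplotlib 3.10.9.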

Additional observations from a re-analysis of the deposited data

How the results depend on the processing

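No paired analysis was possible because each list pools both samples of a population, and for the same reason no replicate could be left out. Of 230 values that answer a comparison under other settings, 180 kept their direction and size, as did 99 of 131 differences of single members. Centred on all genes, the median log2 ratio was 0.062 for basal TACs over bulge and 0.022 for both TAC over both telogen lists, both reversed in sign, 0.089 for basal TACs over hair germ, also of the other sign, -0.087 for suprabasal TACs over bulge, -0.092 over hair germ and -0.28 over basal TACs. Members past 1.5-fold then numbered 6, 4, 6, 5, 7 and 4 in the same order. Centred on genes of like level, a setting chosen after seeing the data, as were the overlap and fragment-size settings and the matched peaks of Foxm1 and Cdk2, these medians were 0.13, 0.013, 0.13, 0.0068, -0.084 and -0.26 (reversed for basal TACs over bulge, between stages and for suprabasal TACs over bulge), with 6, 4, 7, 4, 6 and 4 members past 1.5-fold. On fold enrichment, the medians were -0.16, -0.38, -0.10, -0.63, -0.53 and -0.45, and the counts were 4, 7, 4 and, for suprabasal TACs over hair germ and over basal TACs, 13 and 9, with 1 for hair germ over bulge. At 2-fold, counts were 3 for basal TACs over bulge, 5 over hair germ, 9 for suprabasal over basal TACs and 12 between stages. The counts at 2-fold, on fold enrichment and centred on genes of like level have no share over all genes beside them here. The exception is fold enrichment for suprabasal over basal TACs, given above. They show how the calls move with the setting and do not set the members apart from all genes. Scaled also by fragment size, the median was -0.80 for basal TACs over bulge and -0.37 for suprabasal over basal TACs, with 9 past 1.5-fold. Members with a bulge gene-end peak were 94.9% when any peak there counted and by overlap. With gene starts only, 96.7% had a peak in hair germ and in suprabasal TACs, 100% of sites were in all 4 lists, and 1 member was past 1.5-fold for hair germ over bulge. With absence scaled for depth, TAC lists alone held 21.7% of distal sites. The causes were not tested. Gene-end pileups of 15 to 467 fragments limit single ratios, most of all in hair germ.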
